A study of Mus musculus and Homo sapiens with 11 samples.

Results

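Genes of the mouse solute carrier families SLC1, SLC3, SLC6, SLC7, SLC36, SLC38 and SLC43, most of which move amino acids across cell membranes, were compared between brain metastatic and parental mammary tumour cells. Members were taken by symbol alone and numbered 64 of the 24062 genes listed. The families were chosen with earlier results of these data known. Of the 64, 61 are carriers or carrier subunits, and 3 are genes on the strand opposite a carrier (Slc36a1os, Slc6a19os and Slc7a6os) whose symbols match the same pattern. The BrM group was a brain metastatic derivative, labelled 2a, of the mouse breast cancer cell line MMTV-ErbB2, and the parental group was that line before selection. Each group had 3 libraries of polyadenylated RNA. Both share the MMTV-ErbB2 background, in which the oncogene Erbb2 is driven from a mouse mammary tumour virus promoter that is active in mammary epithelium. No treatment, time or animal age is given for either group, and each is a single line, so no spread between lines was measured. The labels allow DMEM or RPMI media and TruSeq or NEBNext library kits without saying which library had which. A difference of medium or kit between the groups cannot be told apart from a difference of the derivative.

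Amino acid carriers work as exchangers, as sodium- or proton-driven pumps, or as facilitators. SLC1 carriers take up glutamate and aspartate or exchange neutral amino acids. SLC7 light chains reach the cell surface only when joined to an SLC3 heavy chain, and then exchange leucine, glutamine, arginine or cystine, while the cationic carriers of SLC7 work alone. SLC38 and SLC36 carriers move small neutral amino acids at the cell surface and at the lysosome, where their cargo is read by the kinase complex mTORC1. Tumour cells are known for high levels of the leucine carrier Slc7a5, of the cystine carrier Slc7a11 and of the glutamine carrier Slc1a5, and brain tissue for the glutamate carriers Slc1a2 and Slc1a3 of astrocytes. When amino acids run short, the kinase GCN2 and the transcription factor ATF4 raise many of these genes.

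Values are normalised read counts as deposited, written in the order of replicates 1, 2 and 3. Replicate 3 of each group is a table column whose number matches no numbered title, so it was placed by its group only. Reads assigned to genes numbered 29877087 to 39106969 in BrM libraries and 39304974 to 46683735 in parental libraries. BrM replicate 1 stood apart: 3614 and 3654 tested genes differed at least 2-fold between it and BrM replicates 2 and 3, and 220 between BrM replicates 2 and 3. Parental pairs differed that much in 976 to 1683 genes. The labels do not state that the libraries of one group are separate cultures, and the p-values therefore reflect library-to-library spread that could be technical. The sum over 5 mammary epithelial markers was 185726 to 221896 in BrM and 127868 to 138723 in parental libraries. Its members went both ways: the keratins Krt8 and Krt18 were higher, and Cdh1 (E-cadherin) was lower (15921 ± 666 in BrM against 24720.0 ± 1826 in parental libraries, SD, n = 3 each; limma adjusted p = 0.0113). None of the list was lower without BrM replicate 2 or 3 or parental replicate 2, and 2 were lower without BrM replicate 1. Epcam did not pass (limma adjusted p = 0.410), and neither did Erbb2 itself (70490.2, 41468 and 47069 in BrM libraries against 42315, 30959 and 42628 in parental libraries; limma adjusted p = 0.243). The sum over 8 fibroblast and pericyte markers was 209 to 995 in BrM and 1565 to 5894 in parental libraries. In that list 3 of 5 tested genes were lower (2 without BrM replicate 2 or 3 or parental replicate 1), the fibroblast matrix gene Dcn was at 0 in all BrM libraries and Lum at 0 in all 6. Pdgfrb, also lower, had 0, 0.956 and 3.73 in BrM libraries against 2765, 3683 and 1002 in parental libraries. Pdgfra (555, 165 and 170 in BrM libraries) and Col1a1 (437, 42.1 and 44.7 in BrM libraries) were still read in BrM libraries and did not pass. The sum over 8 neuron and glia markers was 2202 to 2303 in BrM and 2217 to 3649 in parental libraries, with Gfap and Mbp higher, the astrocyte gene Aldh1l1 lower (3.66, 0 and 0 in BrM libraries against 2615, 2238 and 839 in parental libraries) and Olig2 at 0 in all 6. The sum over 5 leukocyte markers was 449 to 3000 in BrM and 219 to 598 in parental libraries. Of its 2 tested genes Csf1r, a receptor of macrophages, was higher, with 319, 254 and 230.0 in BrM libraries against 2.04, 1.65 and 18.9 in parental libraries (limma adjusted p = 0.00370). Cd68 did not pass and was highest in BrM replicate 1 (2669.6, 209 and 211 in BrM libraries against 594, 221 and 195 in parental libraries). The sum over 4 endothelial markers was 3.73 to 25.6 in BrM and 9.44 to 18.9 in parental libraries. The part of these shifts in the results below was not tested, and fewer cells of a type and less RNA per cell cannot be told apart in such libraries.

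Most carriers that differed were lower in BrM cells. A gene was tested with limma when its mean over the 6 libraries was at least 10, on log2 of the value plus 1, and called at a Benjamini-Hochberg adjusted p under 0.05 over all 13821 tested genes. Of the 64 members 34 were tested, and 14 of these were lower and 3 higher in BrM cells. That is 41.2% of the tested members lower, against 15.8% of all tested genes, and 8.82% higher, against 12.2% of all tested genes, with 28.1% of all tested genes called in either direction. On recovered reads, edgeR called 13 members lower, against 14.8% of all tested genes, and 2 higher, against 12.3% (27.2% in either direction). DESeq2 called 15 members lower, against 19.3% of all tested genes, and 3 higher, against 17.4% (36.7% in either direction). The median log2 fold change was -0.57 over the tested members and -0.05 over all tested genes. Values of the BrM and parental groups did not overlap for 17 members that lay below and 5 that lay above, against 25.7% of all tested genes below and 22.3% above (48% in either direction). The fall was at least 8-fold for 7 members (Slc1a1, Slc1a2, Slc1a3, Slc7a2, Slc38a1, Slc43a3 and Slc6a2), a size reached by 4.94% of all tested genes. Members tested only because one group was high had to differ, so these counts describe the 34 and not all 64.

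Calls of 8 members were kept under each of 21 other settings in which the gene was tested: Slc1a1, Slc1a2, Slc1a3, Slc7a2, Slc38a1, Slc43a2 and Slc43a3, all lower, and Slc38a6, higher. The other 9 calls ended when some libraries were left out. Slc1a3, Slc38a1 and Slc43a3 had BrM means of 0.319, 0.814 and 0.310, so they passed the filter only through the parental libraries. All settings reuse the same libraries, so a kept call is not independent support. The count of lower members was 7 without BrM replicate 2 and without BrM replicate 3, and 8 without parental replicate 2. Leaving out parental replicate 1 gave 10 lower members, parental replicate 3 gave 12 and BrM replicate 1 gave 14. Higher members numbered 1 without BrM replicate 2 or 3 or parental replicate 2 or 3. They numbered 2 when parental replicate 1 was left out and 3 when BrM replicate 1 was left out. Calls over all tested genes also moved, from 3881 with all libraries. Without BrM replicate 2, BrM replicate 3 and parental replicate 2 there were 2191, 2312 and 2226. Without parental replicate 1, parental replicate 3 and BrM replicate 1 there were 2505, 2922 and 6519. Counts of gene lists with 1 library left out are to be read beside these totals.

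**Figure D1:**
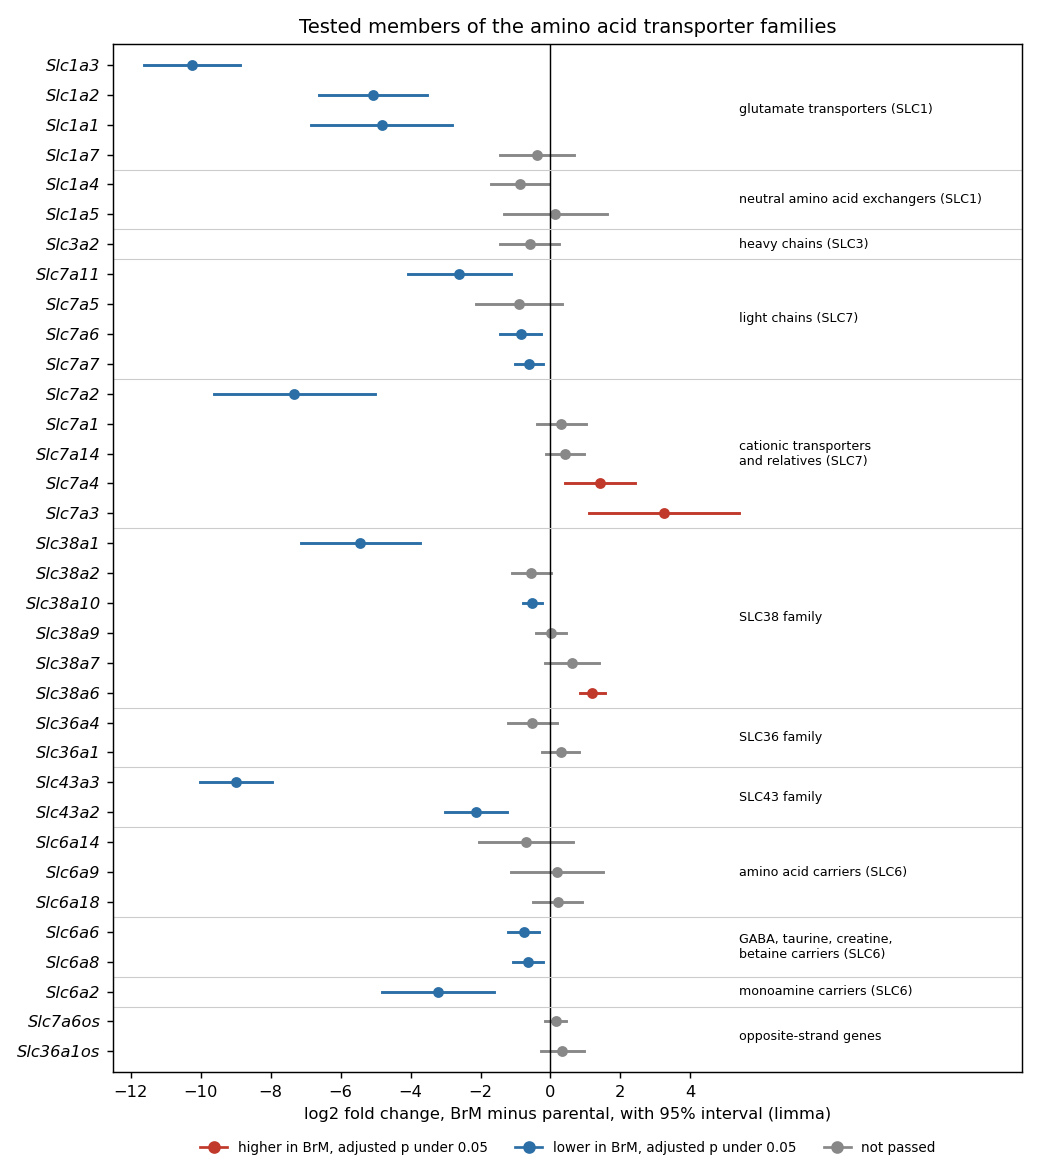
log2 fold change (BrM minus parental, on log2 of the normalised count plus 1) of the 34 tested members with its 95% interval from limma, grouped by role; red points were higher and blue points lower in BrM cells at an adjusted p under 0.05, grey points did not pass. The 14 blue points outnumber the 3 red ones, and 7 blue points lie at a fall of at least 8-fold.

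The glutamate carriers of SLC1 had 3 of 4 tested members lower in BrM cells and none higher (75% lower, against 15.8% of all tested genes). Slc1a3, the GLAST carrier of astrocytes, had 0, 0.956 and 0 in BrM libraries against 729.7, 1806 and 2655 in parental libraries. Only 1 read stood in the BrM libraries together, against 5722 reads in the parental ones. Scaled for depth, the reads were 5164 times lower (exact 95% interval 927 to 204015, counting error only), and the call had a limma adjusted p of 0.000154. Slc1a2, the GLT-1 carrier that clears most synaptic glutamate in brain, had 80.6, 17.2 and 22.4 in BrM libraries against 1750.4, 1158 and 665 in parental libraries. It was 33.9-fold lower (log2 fold change -5.08, SE 0.64, n = 3 each, limma adjusted p = 0.00248), and every BrM library lay far below every parental one. BrM replicate 1 was the highest of its group, and without it the fall of Slc1a2 was 53.6-fold.

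Slc1a1, the EAAC1 carrier of neurons and epithelia that also takes up cysteine, had 47.6, 3.83 and 6.52 in BrM libraries against 335, 381 and 309 in parental libraries. It was 28.2-fold lower (log2 fold change -4.82, SE 0.84, limma adjusted p = 0.00792). Again BrM replicate 1 was the highest of the BrM libraries: the fall was 56.6-fold without it and 17.8-fold without BrM replicate 2. Exons of Slc1a1 overlap those of 4430402I18Rik on the other strand, and the sources used here do not state whether counting used strand. Slc1a7, a retinal glutamate carrier, had 9.56 ± 4.02 in BrM and 12.4 ± 2.55 in parental libraries (SD, n = 3 each) and did not pass. Per kilobase of exon, Slc1a1, Slc1a2 and Slc1a3 together reached 11.9, 1.89 and 2.49 in BrM libraries against 259, 346 and 399 in parental libraries. Within that sum Slc1a3 took 33.0%, 61.2% and 77.9% in parental replicates 1, 2 and 3, so the parental libraries differed among themselves in which glutamate carrier led. The genes lie on GRCm38 at chr15:8634124-8710764 (Slc1a3, minus strand), chr2:102658659-102790784 (Slc1a2, plus strand) and chr19:28835049-28913960 (Slc1a1, plus strand).

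Glul, glutamine synthetase, which joins ammonia to glutamate, was 11.8-fold lower in BrM cells. It had 3907, 1456 and 1484 in BrM libraries against 34624, 16647 and 24262 in parental libraries (log2 fold change -3.56, SE 0.45, limma adjusted p = 0.00246). All BrM libraries lay below all parental ones, and the call held without each library in turn. Over 14 tested genes of glutamine and glutamate metabolism, 1 was lower (Glul) and 1 higher, the cytosolic aspartate transaminase Got1 (log2 fold change 1.04, limma adjusted p = 0.0490). The call of Got1 ended without BrM replicate 1, 2 or 3 and without parental replicate 2 or 3, at adjusted p from 0.0510 to 0.153. The list had 14.3% of its tested genes called, against 28.1% of all tested genes, and its median log2 fold change was 0.44. Its counts changed with the library left out, as did calls over all tested genes (2191 to 6519, against 3881 with all libraries). In the list 4 were higher and 3 lower without BrM replicate 1, and 3 higher and 1 lower without parental replicate 1. None was higher and 1 lower without any other one library.

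**Figure D2:**
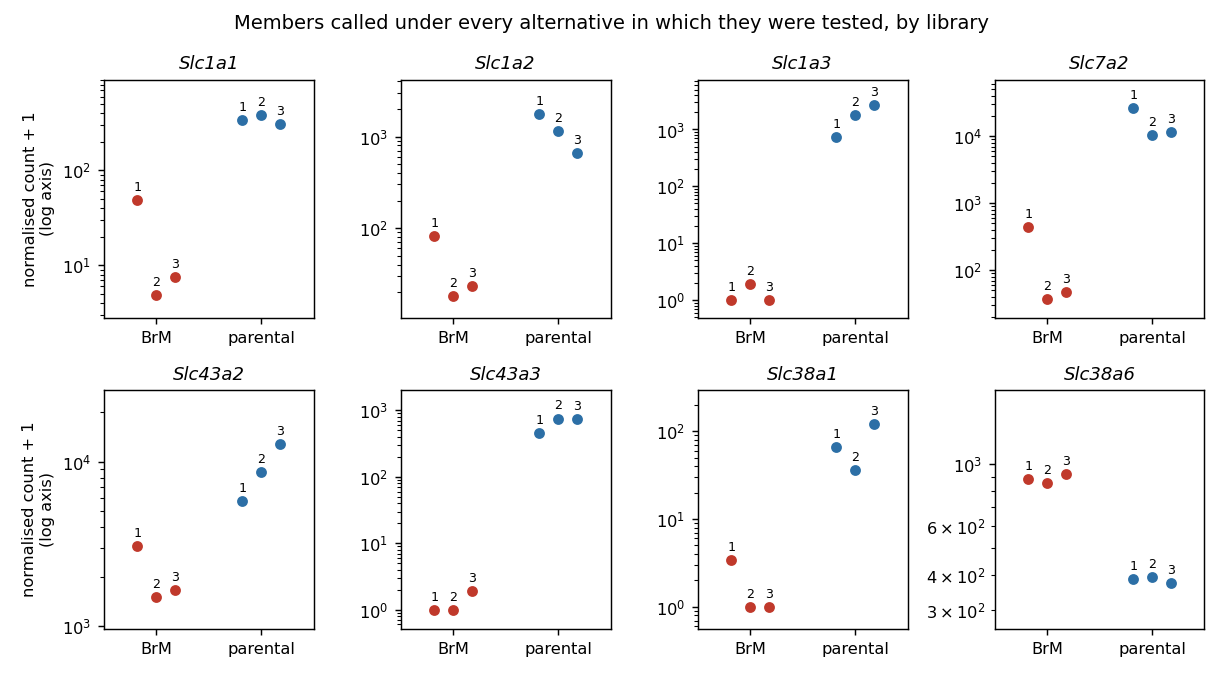
Normalised count plus 1 (log axis, a separate scale in each panel) by library for the 8 members called under every setting in which they were tested; points are libraries, numbered by replicate, BrM left and parental right. Groups do not overlap in any panel, and BrM libraries lie below in 7 panels and above for Slc38a6. BrM replicate 1 is the highest BrM library for Slc1a1, Slc1a2, Slc7a2, Slc38a1 and Slc43a2. Slc1a3, Slc38a1 and Slc43a3 passed the filter for testing only through the parental libraries.

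The neutral exchangers of SLC1 did not pass. Slc1a4, the ASCT1 exchanger of alanine, serine and cysteine, had 774, 934 and 949 in BrM libraries against 2235, 1993 and 921 in parental libraries (log2 fold change -0.86, SE 0.35, limma adjusted p = 0.111). Parental replicate 3 lay among the BrM values. Without it the log2 fold change was -1.26 with a limma adjusted p of 0.00954. With all libraries, Slc1a4 was also called by DESeq2 (log2 fold change -0.93, adjusted p = 0.0332) and by limma with array weights (-0.91, adjusted p = 0.00441). Slc1a5, the ASCT2 exchanger that brings in glutamine, had 248, 1227 and 1148 in BrM libraries against 577, 611 and 741 in parental libraries. BrM replicate 1 lay below all parental libraries and the other BrM libraries above them all, and the log2 fold change of 0.14 had a 95% interval of -1.33 to 1.61. Without BrM replicate 1, Slc1a5 was called higher, and its libraries are given singly because of this spread.

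Among heavy and light chains, 3 of 4 tested light chains were lower (75%, against 15.8% of all tested genes). The pair with the most transcript did not pass. Slc3a2, the heavy chain CD98 that carries most light chains to the surface, had 9175, 6120.5 and 6001 in BrM libraries against 17864, 8486 and 7685 in parental libraries (log2 fold change -0.60, SE 0.35, limma adjusted p = 0.257). Parental replicate 1 was more than 2-fold above the other parental libraries, and BrM replicate 1 lay above both of them. Slc7a5, the LAT1 light chain that exchanges glutamine for leucine, had 5739.6, 7779 and 7983 in BrM libraries against 31169, 9202 and 7997 in parental libraries (log2 fold change -0.90, SE 0.51, limma adjusted p = 0.241). The groups did not overlap, but parental replicate 3 lay close to BrM replicates 2 and 3. Without parental replicate 1 the fold was 1.21 lower, against 1.86 with it. The ratio of Slc7a5 to Slc3a2 per kilobase of exon was 0.595, 1.21 and 1.27 in BrM libraries against 1.66, 1.03 and 0.990 in parental libraries, and these overlapped.

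Slc7a11, the xCT light chain that imports cystine in exchange for glutamate, was lower in BrM cells. It had 657, 425 and 672 in BrM libraries against 8978, 3128 and 1532 in parental libraries, a 6.11-fold fall (log2 fold change -2.61, SE 0.61, limma adjusted p = 0.0225). Every BrM library lay below every parental one, and the parental libraries spread widely. Leaving out parental replicate 1 gave a 3.82-fold fall, and leaving out parental replicate 3 a 9.24-fold fall. The call ended without BrM replicate 2, BrM replicate 3 or parental replicate 2, at adjusted p from 0.0555 to 0.0739. Relative to Slc3a2 per kilobase of exon, Slc7a11 stood at 0.0181, 0.0176 and 0.0284 in BrM libraries against 0.127, 0.0934 and 0.0505 in parental libraries, with no overlap.

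Slc7a11 is a textbook target of ATF4, which binds CCAAT/enhancer-binding protein and ATF response elements such as TGATGCAA. The 250 bases before its RefSeq start are shown because they hold that motif on both strands (GRCm38.p6, chr3:50443614-50443863, minus strand, 5′ to 3′). Capitals mark the motif, written TTGCATCA where it lies on the opposite strand.
Slc7a11: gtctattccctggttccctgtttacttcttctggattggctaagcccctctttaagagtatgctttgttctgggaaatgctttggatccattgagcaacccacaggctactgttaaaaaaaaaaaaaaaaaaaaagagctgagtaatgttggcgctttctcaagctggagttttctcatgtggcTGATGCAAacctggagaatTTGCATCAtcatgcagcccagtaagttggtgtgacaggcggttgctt
The copies lie 66 to 59 and 47 to 40 bases before the start. RefSeq gave 67 windows for 46 of the 64 members, 23 of them tested, and both strands of each window were searched. TGATGCAA was in 2 of these 67 windows, for Slc7a11 and Slc7a7 only, against 260 of 32851 windows of all genes (0.791%). The looser TGATGNAA, which takes in every TGATGCAA, was in 1134 of the 32851 windows (3.45%). Among members it was in 3 of the 67 windows, again for Slc7a11 and Slc7a7 only. A match describes these letters and not a bound factor.

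Slc7a7 and Slc7a6, the y+LAT light chains that export cationic amino acids in exchange for neutral ones, were also lower. Slc7a7 had 1190.2, 1142 and 1142 in BrM libraries against 2190.0, 1664 and 1538 in parental libraries, a 1.53-fold fall (log2 fold change -0.62, SE 0.17, limma adjusted p = 0.0373). Slc7a6 had 648, 1097 and 1114 in BrM libraries against 1503, 1713 and 1797 in parental libraries, a 1.80-fold fall (log2 fold change -0.85, SE 0.24, limma adjusted p = 0.0424). Neither gene's groups overlapped, and BrM replicate 1 was the lowest library for Slc7a6. The call of Slc7a7 ended without BrM replicate 2 or 3 or parental replicate 1 or 2 (adjusted p from 0.0873 to 0.118). That of Slc7a6 ended without any one library other than BrM replicate 1 (adjusted p from 0.0620 to 0.128), and edgeR did not call it. Exons of Slc7a7 overlap those of Oxa1l.

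Of 12 tested genes for cystine use and glutathione synthesis, 2 were lower and none higher, and the median log2 fold change was -0.26. The share called was 16.7%, against 28.1% of all tested genes. There were 4 lower and 1 higher without BrM replicate 1, and 1 lower and 1 higher without parental replicate 1 or 3. There was 1 lower and none higher without BrM replicate 2 or 3. Nqo1, a quinone reductase induced by the factor NRF2, had 8.54, 2.87 and 0.931 in BrM libraries against 200.5, 374 and 466 in parental libraries (log2 fold change -6.31, limma adjusted p = 0.00124). Its groups were far apart and its call held without each library, the fold being 120.0 without BrM replicate 1 against 79.1 with it. Nfe2l2, which encodes NRF2, had 4264, 3861 and 3605 in BrM libraries against 6549, 4714 and 5764 in parental libraries (log2 fold change -0.53, limma adjusted p = 0.0488). Its groups did not overlap, but the call ended without BrM replicate 2 or 3 or parental replicate 1 or 3 (adjusted p from 0.123 to 0.156).

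Of 5 tested cationic carriers and relatives, 1 was lower and 2 were higher in BrM cells (60% called, against 28.1% of all tested genes). Slc7a2, the CAT2 carrier of arginine and lysine that is induced in inflammation, had 438, 36.3 and 45.6 in BrM libraries against 26426, 10290.2 and 11598 in parental libraries. It was 160-fold lower (log2 fold change -7.33, SE 0.96, limma adjusted p = 0.00276), and the lowest parental library lay more than 20-fold above the highest BrM library. BrM replicate 1 was the highest BrM library, and the fall was 351-fold without it and 102-fold without BrM replicate 2. Slc7a3, the CAT3 carrier of the same substrates, had 713, 407 and 404 in BrM libraries against 227, 26.4 and 20.8 in parental libraries. It was 9.55-fold higher (log2 fold change 3.26, SE 0.89, limma adjusted p = 0.0378), with replicate 1 the highest library in both groups. Leaving out parental replicate 1 gave a 20.1-fold rise, and leaving out parental replicate 3 a 6.21-fold rise. Its call ended without any one library other than parental replicate 1 (adjusted p from 0.0509 to 0.126), and edgeR did not call it.

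Slc7a1, the CAT1 carrier found in most cells, did not pass: it had 5387, 8142 and 9439.8 in BrM libraries against 8106, 4428 and 5995 in parental libraries (log2 fold change 0.31, SE 0.29, limma adjusted p = 0.462). Its groups overlapped. Per kilobase of exon, Slc7a1, Slc7a2 and Slc7a3 together reached 704, 818 and 931 in BrM libraries against 3656, 1517 and 1795 in parental libraries. Slc7a2 made up 6.82%, 0.486% and 0.537% of that sum in BrM libraries against 79.1%, 74.2% and 70.7% in parental libraries. Slc7a1 made up 66.4%, 86.3% and 88.0% in BrM libraries against 19.2%, 25.3% and 29.0% in parental libraries. Slc7a3 made up 26.8%, 13.2% and 11.5% in BrM libraries against 1.64%, 0.459% and 0.306% in parental libraries. So Slc7a1 led the cationic carriers in every BrM library and Slc7a2 in every parental library, on the scale per exon length. Slc7a2 lies at chr8:40862396-40922308 (plus strand) and Slc7a3 at chrX:101079210-101086020 (minus strand) on GRCm38.

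**Figure D3:**
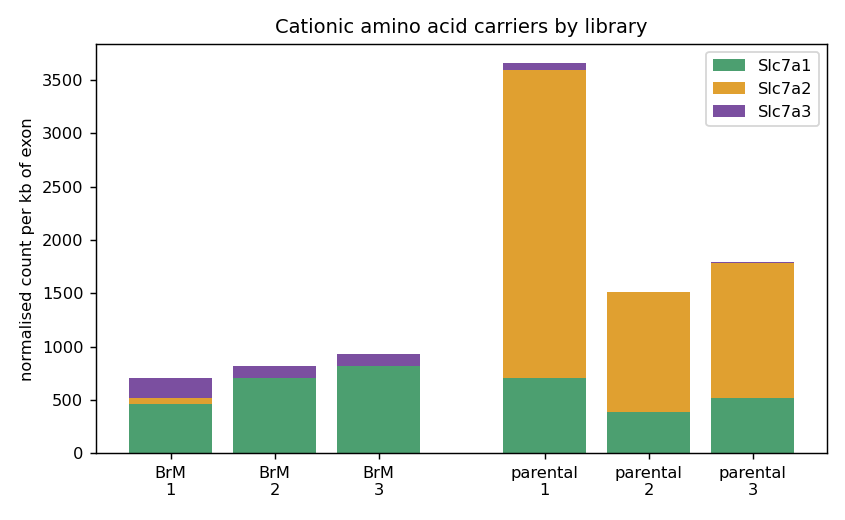
Normalised count per kilobase of exon of the cationic carriers Slc7a1, Slc7a2 and Slc7a3, stacked by library, with BrM libraries left and parental libraries right. The sum lies at 704 to 931 in BrM libraries and at 1517 to 3656 in parental libraries, where Slc7a2 fills 70.7% to 79.1% of the bar.

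Slc7a4, a relative of the CAT carriers with no established substrate, had 1027, 411 and 428 in BrM libraries against 272, 222 and 158 in parental libraries. It was 2.66-fold higher (log2 fold change 1.41, SE 0.42, limma adjusted p = 0.0471), and the groups did not overlap. The call ended without BrM replicate 2 or 3 or any one parental library (adjusted p from 0.0673 to 0.136), and exons of Slc7a4 overlap those of P2rx6. Slc7a14, a lysosomal relative, had 345 ± 56.7 in BrM and 260 ± 34.1 in parental libraries (SD, n = 3 each) and did not pass.

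Genes that use arginine and ornithine went both ways: of 8 tested, 1 was higher and 2 lower (37.5% called, against 28.1% of all tested genes). Leaving out BrM replicate 1 gave 2 higher and 3 lower. Leaving out BrM replicate 3 or parental replicate 1 or 2 gave 1 higher and none lower, and leaving out BrM replicate 2 or parental replicate 3 gave 1 higher and 1 lower. Odc1, the rate-limiting enzyme of polyamine synthesis, had 43020.2, 34951 and 33605 in BrM libraries against 14928, 9177 and 9275 in parental libraries (3.41-fold higher, limma adjusted p = 0.00261). Its groups did not overlap and its call held without each library. Oat, ornithine aminotransferase, had 2978, 4159.7 and 3918 in BrM libraries against 7053, 7005 and 5252 in parental libraries (log2 fold change -0.81, limma adjusted p = 0.0222). Arg2, mitochondrial arginase, had 67.1, 18.2 and 7.45 in BrM libraries against 549.5, 120.3 and 219 in parental libraries (log2 fold change -3.46, limma adjusted p = 0.0292). Both fell below every parental library. The call of Oat ended without BrM replicate 3 or parental replicate 1 or 2 (adjusted p from 0.0568 to 0.0870), and that of Arg2 without any one library other than BrM replicate 1 (adjusted p from 0.0512 to 0.0989). The fall of Arg2 ranged from 6.78-fold without BrM replicate 3 to 19.2-fold without BrM replicate 1. Nos2, inducible nitric oxide synthase, was singled out after its values were seen: it had 10826, 4.78 and 4.66 in BrM libraries against 6129, 10542 and 6606 in parental libraries, so BrM replicate 1 stood with the parental libraries and the others near 0. It did not pass (limma adjusted p = 0.127).

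Of 6 tested SLC38 members, 2 were lower and 1 higher (50% called, against 28.1% of all tested genes). Slc38a6, a family member described in neurons, had 884, 853 and 923 in BrM libraries against 388, 394 and 376 in parental libraries. It was 2.29-fold higher (log2 fold change 1.20, SE 0.15, limma adjusted p = 0.00242), and the libraries of each group lay close together. Slc38a1, the SNAT1 glutamine carrier, had 2.44, 0 and 0 in BrM libraries against 65.1, 34.6 and 119 in parental libraries. With 2 reads in BrM against 232 in parental libraries, it was 105 times lower after scaling for depth (exact 95% interval 28.7 to 870, counting error only; limma adjusted p = 0.00269). Its limma fold was 43.5 with all libraries and 65.6 without BrM replicate 1, where all remaining BrM values are 0 and the fold rests on the added 1. Slc38a10, a widely expressed member of the family, had 8872, 8361 and 8605 in BrM libraries against 12793, 12964 and 11389 in parental libraries. That fall was small, 1.44-fold (log2 fold change -0.52, SE 0.11, limma adjusted p = 0.0172), with tight groups that did not overlap. Its call ended without BrM replicate 2 or 3 or parental replicate 1 or 2 (adjusted p from 0.0592 to 0.0834).

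Slc38a2, the SNAT2 carrier that starved cells raise, had 6332, 10418 and 10601 in BrM libraries against 14345, 11135 and 13514 in parental libraries. The groups did not overlap, but the log2 fold change of -0.54 (SE 0.23) did not pass (limma adjusted p = 0.132). Slc38a7, a lysosomal glutamine exporter, had 1175 ± 277 in BrM and 794 ± 324 in parental libraries (SD, n = 3 each) and did not pass. Slc38a9, the lysosomal arginine sensor of mTORC1, had 335 ± 20.8 in BrM and 331 ± 24.9 in parental libraries, and the 95% interval of its log2 difference was -0.43 to 0.46. On GRCm38, Slc38a6 lies at chr12:73286779-73354049 (plus strand) and Slc38a1 at chr15:96571418-96642913 (minus strand).

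Neither tested SLC36 member passed. Slc36a1, a proton-driven carrier of the lysosome, had 1006, 1197 and 1358 in BrM libraries against 1252, 801 and 876 in parental libraries (log2 fold change 0.30, SE 0.22, limma adjusted p = 0.359). Slc36a4 had 137 ± 37.1 in BrM and 193 ± 27.0 in parental libraries (SD, n = 3 each). Over 30 tested genes by which mTORC1 senses amino acids at the lysosome, 2 were lower and none higher, with a median log2 fold change of -0.11. That is 6.67% called, against 28.1% of all tested genes. Leaving out BrM replicate 1 gave 2 higher and 4 lower, and leaving out parental replicate 3 gave 1 higher and 3 lower. Leaving out any other one library gave 1 lower and none higher. Rragb, a Rag GTPase that docks mTORC1 there, had 0, 0 and 0.931 in BrM libraries against 88.5, 84.8 and 39.7 in parental libraries (limma adjusted p = 0.000746). Rraga, another Rag GTPase of the list with far more transcript, had 1973 ± 273 in BrM and 1679 ± 161 in parental libraries (SD, n = 3 each). Rraga did not pass. Tfeb, a lysosomal transcription factor, had 508, 253 and 249 in BrM libraries against 1155, 895 and 729.9 in parental libraries (log2 fold change -1.52, limma adjusted p = 0.0189). The call of Tfeb ended without BrM replicate 2 or 3 or parental replicate 1 or 2 (adjusted p from 0.0653 to 0.0729), whereas that of Rragb held without each library.

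Both tested SLC43 members were lower, against 15.8% of all tested genes. Slc43a3, known as a carrier of purine nucleobases rather than of amino acids, had 0, 0 and 0.931 in BrM libraries against 456, 754 and 739 in parental libraries. With 1 read in BrM against 2146 in parental libraries it was 1937 times lower after scaling for depth (exact 95% interval 347 to 76536, counting error only; limma adjusted p = 0.000115). Slc43a2, the LAT4 facilitator of leucine, phenylalanine and methionine, had 3064, 1499 and 1668 in BrM libraries against 5799, 8694 and 12804 in parental libraries. It was 4.38-fold lower (log2 fold change -2.13, SE 0.37, limma adjusted p = 0.00809), and the groups did not overlap.  On GRCm38, Slc43a3 lies at chr2:84936579-84958509 and Slc43a2 at chr11:75531694-75577575, both on the plus strand. Of 8 tested genes for the breakdown of leucine, isoleucine and valine, 2 were higher (Dld and Ivd) and 1 lower (Bckdk). That is 37.5% called, against 28.1% of all tested genes, and the median log2 fold change of the list was -0.57. The 5 genes that did not pass had log2 fold changes from -1.72 (Bcat1) to -0.37 (Bckdhb). Lower genes numbered 2 without BrM replicate 1 and none without BrM replicate 2 or 3 or parental replicate 2, and higher genes numbered 1 without any one library other than BrM replicate 1. Dld, a subunit shared by the branched-chain dehydrogenase, had 5327, 7021 and 6274 in BrM libraries against 3439, 2595 and 2776 in parental libraries (2.12-fold higher, limma adjusted p = 0.00493), and its call held without each library. Those of Ivd (limma adjusted p = 0.0452) and of Bckdk, the kinase that shuts the dehydrogenase off (limma adjusted p = 0.0414), did not: Ivd was lost without any one library other than BrM replicate 1 (adjusted p from 0.0551 to 0.139), and Bckdk without BrM replicate 2 or 3 or parental replicate 2 or 3 (adjusted p from 0.115 to 0.142).

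None of 3 tested SLC6 carriers of amino acids passed. Slc6a9, the glycine carrier GlyT1, had 1309, 896 and 1009.5 in BrM libraries against 2301, 554 and 614 in parental libraries (log2 fold change 0.20, SE 0.55, limma adjusted p = 0.817). Parental replicate 1 lay above every BrM library and the other parental libraries below them all. Without parental replicate 1, Slc6a9 was 1.81-fold higher in BrM cells with an adjusted p of 0.0579, and its direction reversed without parental replicate 2 or 3. Exons of Slc6a9 overlap those of Ccdc24 and B4galt2. Slc6a14, a broad carrier of neutral and cationic amino acids, had 506 ± 330 in BrM and 808 ± 483 in parental libraries, and Slc6a18, a renal neutral carrier, had 54.4 ± 5.47 in BrM and 47.1 ± 7.46 in parental libraries (SD, n = 3 each).

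The taurine and creatine carriers were modestly lower. Slc6a6, which imports taurine, had 7726, 6057 and 6624 in BrM libraries against 9453, 14170.5 and 11284 in parental libraries, a 1.70-fold fall (log2 fold change -0.76, SE 0.18, limma adjusted p = 0.0247). Slc6a8, which imports creatine, had 4322, 3631 and 3729.9 in BrM libraries against 7679, 5144 and 5756 in parental libraries, a 1.57-fold fall (log2 fold change -0.65, SE 0.18, limma adjusted p = 0.0375). Neither gene's groups overlapped. The call of Slc6a6 ended without BrM replicate 2 or 3 or parental replicate 2 or 3 (adjusted p from 0.0672 to 0.0925), and that of Slc6a8 without BrM replicate 2 or 3 or parental replicate 1 or 3 (adjusted p from 0.0787 to 0.124). Ckb, brain-type creatine kinase, was the 1 gene called among 5 tested for creatine and taurine metabolism (20% called, against 28.1% of all tested genes). In that list 2 genes were also lower without BrM replicate 1, where calls over all tested genes rose from 3881 to 6519. Without parental replicate 3, 1 gene was also lower. Ckb had 1517, 301 and 277 in BrM libraries against 39.7, 32.1 and 34.9 in parental libraries (limma adjusted p = 0.00803). All BrM libraries lay above all parental ones, BrM replicate 1 by most: the rise was 13.8-fold with all libraries and 7.95-fold without BrM replicate 1.

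Slc6a2, the noradrenaline carrier, was the only monoamine carrier tested. It had 13.4, 6.70 and 4.66 in BrM libraries against 172, 79.9 and 34.9 in parental libraries, a 9.29-fold fall (log2 fold change -3.22, SE 0.67, limma adjusted p = 0.0147). The groups did not overlap, and the parental libraries spread widely. The call ended without BrM replicate 2, BrM replicate 3 or parental replicate 2 (adjusted p from 0.0531 to 0.0589). Among opposite-strand genes, Slc7a6os had 1301, 1272 and 1213 in BrM libraries against 1159, 1067 and 1198 in parental libraries (limma adjusted p = 0.446). Slc36a1os had 89.9 ± 7.51 in BrM and 70.8 ± 8.11 in parental libraries (SD, n = 3 each). For both, every BrM library lay above every parental one, and neither passed.

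The remaining 30 members were too low to test. Of these 5 were at 0 in all 6 libraries: the cystine light chain Slc7a9, the small neutral light chain Slc7a10, Slc36a3, Slc38a11 and the glycine carrier Slc6a5. The highest mean was 9.26, for Slc6a17, just under the filter, and the lowest tested mean was 10.98, for Slc1a7. A value of at least 10 in some library was seen in 9 of the 30, the highest being 35.6 for Slc6a15 in parental replicate 1. Slc6a12, a betaine carrier, had 33.0, 0 and 0 in BrM libraries against 0, 0.824 and 0 in parental libraries, so its reads came almost entirely from BrM replicate 1. The proline carrier Slc6a7 had 1.22, 0 and 1.86 in BrM libraries against 7.12, 32.9 and 8.50 in parental libraries. Slc6a12 and Slc6a7 were picked out after their values were seen.

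**Figure D4:**
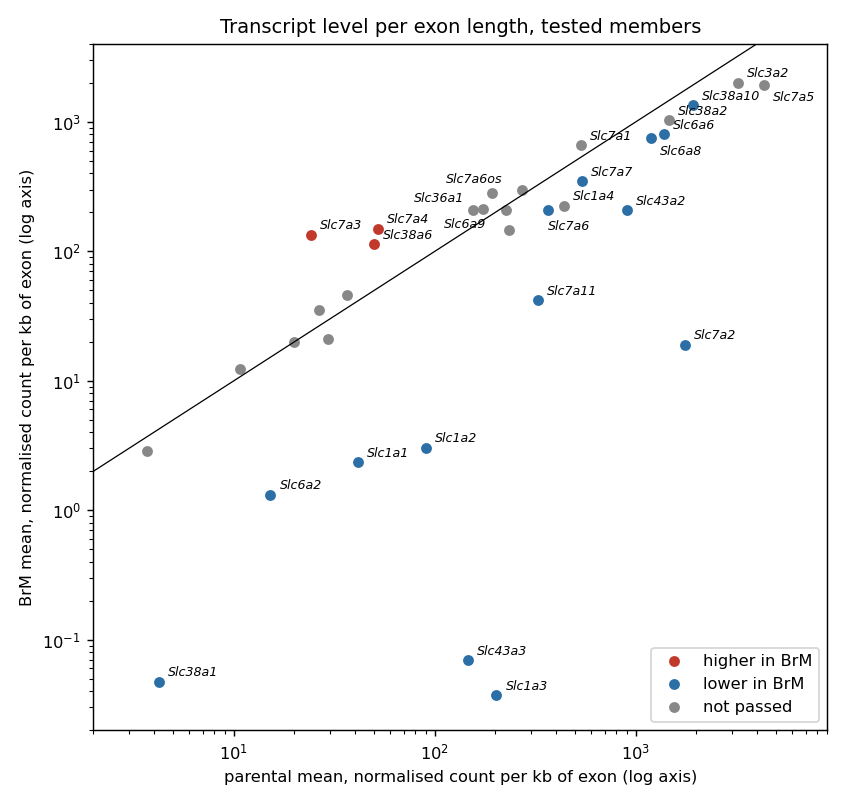
Mean normalised count per kilobase of exon of the 34 tested members in parental libraries (horizontal, log axis) and BrM libraries (vertical, log axis), with the line of equal levels; colours give the limma call. Slc3a2, Slc7a5 and Slc38a10 lie at the upper right in both groups, whereas Slc7a2, at 19.0 in BrM and 1763 in parental cells, and Slc43a3 and Slc1a3, under 0.1 in BrM cells, lie far below the line.

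Ranked by level per kilobase of exon, the leading carriers were nearly the same in both groups. Slc3a2 (mean 2012) and Slc7a5 (1933) held ranks 1 and 2 in BrM libraries, and Slc7a5 (4348) and Slc3a2 (3215) in parental libraries. Given the spread of Slc7a5 over parental libraries, the order of this pair within a group is not beyond its spread. Slc38a10 held rank 3 in both. Slc38a2, Slc6a6 and Slc6a8 held ranks 4, 5 and 6 in BrM and 5, 6 and 7 in parental libraries. Slc7a2 stood at rank 26 of the 34 in BrM libraries and rank 4 in parental libraries, Slc43a2 at rank 16 in BrM and 8 in parental libraries, and Slc7a11 at rank 22 in BrM and 13 in parental libraries.

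Parental replicate 1 stood above the other parental libraries for many amino acid response genes and several carriers. Parental replicate 1 was the highest parental library for 17 of the 34 tested members, against 38.1% of all tested genes. It was at least 2 times both others for 7 members (Slc3a2, Slc7a5, Slc7a11, Slc7a2, Slc7a3, Slc6a9 and Slc6a2), against 2.44% of all tested genes. In a list of 31 tested amino acid response genes, most of them ATF4 targets, it was the highest parental library for 28 and at least 2 times both others for 13. Asns, asparagine synthetase, had 4210, 5331 and 5212 in BrM libraries against 7658, 2104 and 2030 in parental libraries. Trib3, a pseudokinase induced by ATF4, had 2067, 912 and 938 in BrM libraries against 2543, 471 and 376 in parental libraries. Chac1, a glutathione-degrading enzyme, had 970.4, 655 and 711 in BrM libraries against 1281, 335 and 322 in parental libraries. For these 3 genes, BrM libraries lay between parental replicate 1 and the other parental libraries, and none passed. Atf4 itself had 13062, 12009 and 11735.5 in BrM libraries against 17742, 9866 and 9372 in parental libraries, with the same order. Asns, Trib3, Chac1 and Atf4 are examples chosen after their values were seen.

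Between groups, 3 of the 31 amino acid response genes were lower and 1 higher, with a median log2 fold change of 0.36. The share called was 12.9%, against 28.1% of all tested genes. Cebpb, a transcription factor, had 3121, 2056 and 2281 in BrM libraries against 9953, 5814 and 10604 in parental libraries (log2 fold change -1.80, limma adjusted p = 0.00497). Stc2, a secreted glycoprotein, had 979, 661 and 698 in BrM libraries against 6056, 3582 and 1761 in parental libraries (log2 fold change -2.13, limma adjusted p = 0.0144). Wars, tryptophanyl-tRNA synthetase, had 4668, 5573 and 5377 in BrM libraries against 3139, 1483 and 1742 in parental libraries (log2 fold change 1.37, limma adjusted p = 0.0144). The groups did not overlap for these 3 genes. The call of Cebpb held without each library, that of Stc2 ended without BrM replicate 2 or parental replicate 2 (adjusted p from 0.0529 to 0.0595), and that of Wars without BrM replicate 2 or 3 or parental replicate 2 or 3 (adjusted p from 0.0504 to 0.0545). The counts changed with the library left out, as did calls over all tested genes (2191 to 6519, against 3881 with all libraries). Of the 31, 8 were higher and 2 lower without parental replicate 1. Leaving out BrM replicate 1 gave 2 higher and 3 lower. None was higher and 1 lower without BrM replicate 2 or parental replicate 2. None was higher and 2 were lower without BrM replicate 3, and none was higher and 3 were lower without parental replicate 3.

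**Figure D5:**
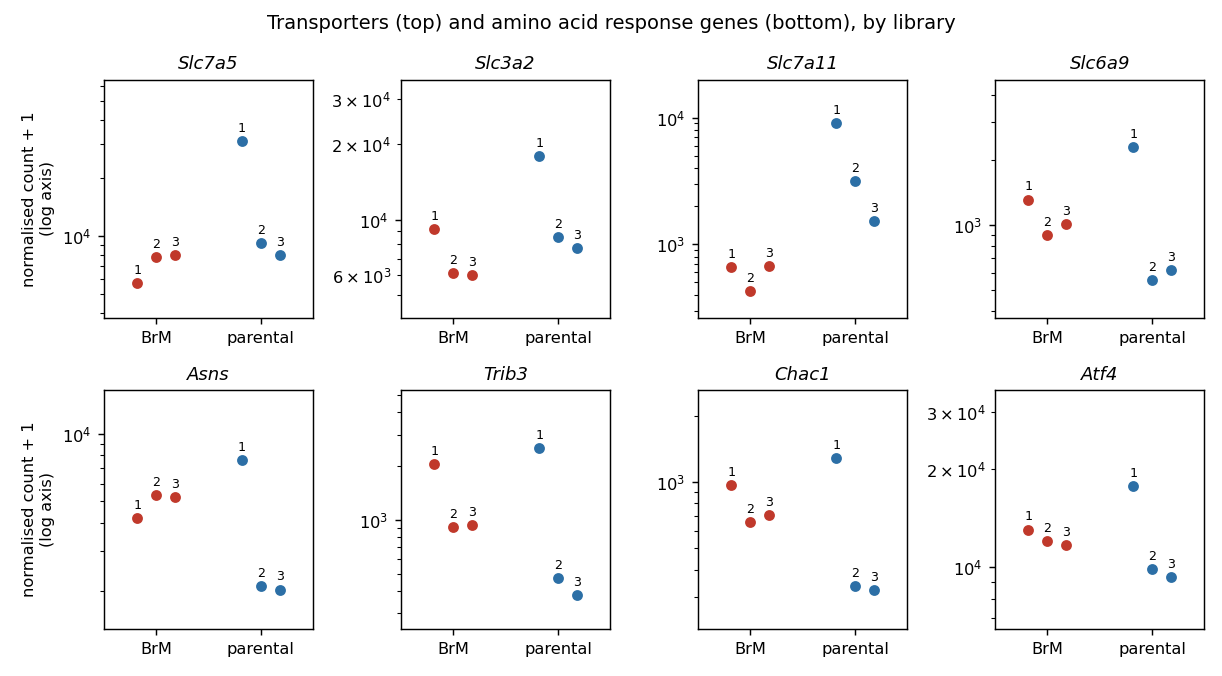
Normalised count plus 1 (log axis, a separate scale in each panel) by library for 4 carriers in the upper row and 4 amino acid response genes in the lower row; points are libraries numbered by replicate, BrM left and parental right. In the lower row BrM libraries lie between parental replicate 1 and the other parental libraries for Asns, Trib3, Chac1 and Atf4.

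Among carriers of amino acids and peptides from other families, 17 of 20 listed genes were tested. Of these 8 were lower and none higher in BrM cells, with a median log2 fold change of -0.65. The share lower was 47.1%, against 15.8% of all tested genes. Slc15a3, a lysosomal peptide and histidine carrier, had 2.44, 2.87 and 3.73 in BrM libraries against 58.0, 34.6 and 24.5 in parental libraries (log2 fold change -3.25, limma adjusted p = 0.00352). Slc25a12, the mitochondrial aspartate and glutamate carrier, had 1017, 1101 and 1063 in BrM libraries against 2321, 2305 and 1823 in parental libraries (log2 fold change -1.01, limma adjusted p = 0.00424). Slc25a15, the mitochondrial ornithine carrier, had 140.4, 198 and 195 in BrM libraries against 467, 532 and 499 in parental libraries (log2 fold change -1.50, limma adjusted p = 0.00430). These 3 genes had groups that did not overlap, and their calls held without each library. The count of lower genes was 4 without BrM replicate 2 or 3, 5 without any one parental library and 8 without BrM replicate 1, where 1 gene was also higher.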

How the data were processed

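Polyadenylated RNA of cultured mouse MMTV-ErbB2 cells was read from 3 BrM and 3 parental libraries. The 5 HCC1954 libraries, of human origin, were not used. The deposited values are signal in the form of read counts that the authors normalised by a method not given in the sources used here. Per the submitters' processing notes, the tools were HTSeq and STAR and the builds GRCm38 and GRCh38, with no versions. In every library 100% of non-zero values came out as whole reads within 0.01 read, and the reads were recovered for count tests: edgeR called 3753 genes (27.2%) and DESeq2 5075 (36.7%), against 3881 by limma.

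The main test was limma 3.58.1 under R 4.3.3 with an intensity trend on log2 of the value plus 1, group only, two-sided, for genes with a mean of at least 10. Fold changes are on that scale, which understates changes of low genes. Adjusted p-values run over all 13821 tested genes. Alternatives were other pseudocounts, filters, scalings, moderation, array weights, a block on the column numbers and a term for numbered libraries. Further ones were edgeR 4.0.16, DESeq2 1.42.0, averaging BrM replicates 1 and 2 and leaving out each library. Averaging BrM replicates 2 and 3 was added after seeing the data. The methods were also run on simulated counts drawn independently for each library. That simulation has no outlying library like BrM replicate 1, so it cannot show how the methods behave with one. Read ratios at 3 reads or fewer in a group have exact 95% intervals. Intervals cover counting error only.

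Members and gene lists were chosen with earlier results of these data known. Named with all values were called members, members with a mean of at least 1000 that did not pass, and up to 3 called genes of smallest p per list; other tested members are given as group means. Lists share genes. Exon lengths and positions are from GENCODE M21 on GRCm38, promoter windows from RefSeq on GRCm38.p6. Plots used Python 3.11.15 and matplotlib 3.10.9.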

Additional observations from a re-analysis of the deposited data

How the results depend on the processing

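The 25 named members gave 524 values under 21 alternatives, of which 455 kept their direction and side of the threshold, 58 lost a call, 7 gained one and 4 reversed. No called member reversed. The 4 reversals were of Slc6a9, which did not pass in any setting: its log2 fold change was -0.10 by edgeR, -0.086 by DESeq2, -0.17 without parental replicate 2 and -0.095 without parental replicate 3, in a range of -0.17 to 0.86 with 1 library left out. Gains among these members were of Slc1a4 (array weights, DESeq2, without parental replicate 3), Slc3a2 (array weights, the replicate block), and Slc7a1 and Slc36a1 (array weights). Beyond them, Slc1a5, Slc38a7 and Slc6a14 gained a call with array weights, Slc1a5 without BrM replicate 1, and Slc43a1, Slc6a3 and Slc6a7 with no filter on low values. The 26 other pathway genes carried through the alternatives gave no reversal, and 13 kept their call in every setting that tested them.

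The 3881 called genes became 8485 with array weights and 2275 with BrM replicates 2 and 3 averaged, and 2191 (without BrM replicate 2) to 6519 (without BrM replicate 1) with 1 library left out. The count also moved by over 1.5 times without BrM replicate 3 (2312), parental replicate 1 (2505) and parental replicate 2 (2226). The 3 higher members became 7 with array weights, 1 with no intensity trend, 1 with BrM replicates 2 and 3 averaged, and 1 to 3 with 1 library left out. The 14 lower members became 7 with BrM replicates 2 and 3 averaged and 7 to 14 with 1 library left out. The cause was not tested. Averaging or leaving out libraries also leaves fewer samples.

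A replicate block on the column numbers gave 4040 genes, 3 higher and 15 lower members. Deviations of same-numbered libraries correlated at 0.30, -0.09 and 0.33 across genes. Those of differently numbered libraries ran from -0.34 (BrM replicate 1, parental replicate 3) to 0.31 (BrM replicate 2, parental replicate 3). The numbers were therefore not taken as pairs. Depth limits the members with 1 or 2 reads in BrM libraries. With 3 libraries a group, calls of modest changes such as those of Slc7a6 and Slc6a8 were lost when certain single libraries were left out. So were calls of the larger changes of Slc7a3 (9.55-fold), Slc6a2 (9.29-fold) and Slc7a11 (6.11-fold). The call of Slc38a6 (2.29-fold) was kept. The direction of the lost calls was kept.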

Other observations

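Of 10 tested serine and glycine genes, neighbours of the amino acid response, 1 was lower and none higher (10% called, against 28.1% of all tested genes). Leaving out BrM replicate 1 gave 3 higher and 2 lower, leaving out parental replicate 1 gave 1 higher and 1 lower, and array weights gave 6 higher and 2 lower. Gldc, the glycine decarboxylase, had 1.22, 5.74 and 2.79 in BrM libraries against 52.9, 51.9 and 19.8 in parental libraries (log2 fold change -3.34, limma adjusted p = 0.00943), with no overlap, and its call held without each library. In tryptophan breakdown 1 of 6 listed genes was tested: Afmid, kynurenine formamidase, had 1226, 563 and 597 in BrM libraries against 292, 258 and 266 in parental libraries (log2 fold change 1.45, limma adjusted p = 0.0192). Its call ended without any one parental library (adjusted p from 0.0580 to 0.0713).

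Of 6 genes for eIF2 kinases and regulators of GCN2, 2 were lower and none higher (33.3% called, against 28.1% of all tested genes). Leaving out BrM replicate 1 gave 3 lower and 1 higher, and leaving out BrM replicate 2 or 3 or parental replicate 1 or 3 gave 1 lower. Eif2ak3, the kinase PERK, had 1141, 1252 and 1201 in BrM libraries against 3173, 2685 and 2594 in parental libraries (log2 fold change -1.23, limma adjusted p = 0.00149), and its call held without each library. Impact, an inhibitor of GCN2 activation, had 1457, 1186 and 1152 in BrM libraries against 2939, 1805 and 2239.7 in parental libraries (log2 fold change -0.86, limma adjusted p = 0.0264), a call that ended without BrM replicate 2 or 3 or parental replicate 1 or 3 (adjusted p from 0.0704 to 0.0914). Among 8 tested partners and regulators of the carriers, 3 were lower and 1 higher (50% called, against 28.1% of all tested genes). Sgk1, a kinase that keeps carriers at the cell surface, had 2808, 2283 and 2268 in BrM libraries against 4165, 7284 and 5650.2 in parental libraries (log2 fold change -1.19, limma adjusted p = 0.0104), and its call held without each library. The ubiquitin ligase Nedd4l, which marks carriers for removal, was higher (log2 fold change 0.76, limma adjusted p = 0.0101). The ligases Rnf5 (log2 fold change -0.90, limma adjusted p = 0.0141) and Nedd4 (-0.71, limma adjusted p = 0.0144) were lower. Nedd4 had 39196 ± 2627 in BrM and 64096 ± 5926 in parental libraries (SD, n = 3 each). Nedd4l had less transcript, with 2639 ± 287 in BrM and 1551 ± 132 in parental libraries. Nedd4l lost its call without BrM replicate 2 or 3 (adjusted p from 0.0504 to 0.0521), and Rnf5 without BrM replicate 2 or 3 or parental replicate 2 or 3 (adjusted p from 0.0514 to 0.0578). The lower genes numbered 1 without BrM replicate 2 or 3, 2 without parental replicate 2 or 3 and 5 without BrM replicate 1, and none was higher without BrM replicate 2 or 3.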
